A study of Homo sapiens with 29 samples.

Results

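The comparison is between a second and a first week on drug in WM239A cells, a human line from a metastatic melanoma. The cells overexpress BRAF-V600E, an activated form of the BRAF kinase common in melanoma, and the drug was LGX818 (encorafenib), an inhibitor of that kinase. All 6 libraries of the comparison, of 29 in the series, come from such cells harvested at the end of 7 days in 500 nM LGX818. The first exposure is week 1 of the course: 3 libraries of cells never treated before. The second exposure is week 3 of the intermittent schedule: 3 libraries of cells that had 7 days of drug, then 7 days in DMSO without it, then 7 days of drug again. The cells of the second exposure had therefore spent 21 days in the course and 14 days on drug, and those of the first exposure 7 days of each, so the break, the added drug and the added time in culture cannot be told apart by this comparison. A pair of groups on unbroken drug stands beside it: 14 days (week 2 continuous, equal total days on drug) and 21 days (week 3 continuous, equal time in the course), with 3 libraries each. Untreated BRAF-V600E cells and cells at the end of the drug-free week are given as levels. The line is a single overexpressing line, and nothing in the labels says that replicates were separate cultures. The p-values therefore measure only the spread between libraries of a group, estimated over all 29 libraries of the series.

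BRAF-V600E sends a growth signal through MEK to the kinase ERK, and ERK switches on early transcription factors and its own phosphatase brakes. Cells that survive BRAF inhibition are known to slow their division and to shift away from the pigment-cell programme run by the transcription factor MITF, often towards a state with high AXL receptor, matrix and cytoskeletal genes. These shifts can reverse when the drug is taken away, which is the idea behind dosing with breaks. The comparison asks how the transcripts of cells at the end of a second week on drug differ from those at the end of the first.

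Total counts per library were 26874857 to 35804978 at the first exposure and 30623247 to 32274390 at the second. The share of counts on the mitochondrial genome was 13.1% ± 0.321 (SD, n = 3) at the second exposure and 10.3% ± 0.839 (n = 3) at the first. The groups did not overlap on that share, but an exact two-sided permutation test of 3 libraries against 3 cannot go below p = 0.1, which is its value here (0.3 adjusted over 3 library measures). Replicate 1 of the second exposure stood apart from the other two: its counts differed from theirs by a mean chi-square of 28.0 and 31.4 per gene, against 7.24 between replicates 2 and 3 and at most 8.85 within the first exposure. Replicate 3 of week 2 continuous stood apart in the same way (38.7 and 51.6, against 6.90), and replicate 1 of week 3 continuous by less in size but in a like ratio (18.4 and 15.8, against 3.54). Leaving out replicate 1 of the second exposure gave 3218 genes higher and 3054 lower at the second exposure, against 3392 and 2979 with all libraries.

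The count columns of the second exposure are headed as off drug while their sample labels say on drug. In these columns DUSP6 and BRAF lay far below their levels in the drug-free week. DUSP6, a phosphatase that ERK induces and that switches ERK off, stood at 116, 101 and 109 CPM (the counts-per-million unit, over library sizes scaled by the TMM method) against 658 ± 18 (SD, n = 3) at the end of the drug-free week. BRAF itself, which includes the introduced copy, stood at 853, 910.4 and 1160 CPM against 3232 ± 59.9 CPM in the drug-free week. Untreated cells had BRAF at 894.8 ± 7.17 CPM, within the range of these columns. The BRAF level therefore sets them apart from the drug-free week but not from untreated cells. The labelled cell type was checked on 10 melanocyte lineage markers. All had counts, and their summed level was 906 to 969 CPM at the first exposure and 508 to 632 CPM at the second, with SOX10, S100B and TYR as the largest contributors. By the edgeR test given below, 7 of the 10 fell and 2, MITF and S100A1, rose (14.5% and 16.6% of all tested genes). Without replicate 3 of the second exposure, 1 of them was called higher.

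The second exposure differed from the first at 6371 of 20494 tested genes (edgeR quasi-likelihood test, Benjamini-Hochberg adjusted p below 0.05), or 31.1%. Of these, 3392 (16.6%) were higher and 2979 (14.5%) lower. Most changes were small: 1227 genes (5.99%) rose and 565 (2.76%) fell by at least 2-fold. The genes past 2-fold were lowly expressed, with a median of 0.757 CPM among rises and 1.92 CPM among falls against 6.96 CPM over all tested genes, and 237 of the rises and 206 of the falls reached a mean of 5 CPM. Protein-coding genes made up 74.6% of the 2-fold rises and 71.6% of the 2-fold falls, close to the 72.3% of all tested genes. The median log2 change over all tested genes was 0.02. Below, a single CPM value is the mean of 3 libraries. Each gene named as rising or falling passed this test with no overlap between the 3 libraries of each exposure. Lack of overlap was common: 8232 of the 20494 tested genes did not overlap, among them 6009 of the 6371 that passed. Counts of list members that rose or fell between the exposures stand against the 16.6% and 14.5% of all tested genes.

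**Figure D1:**
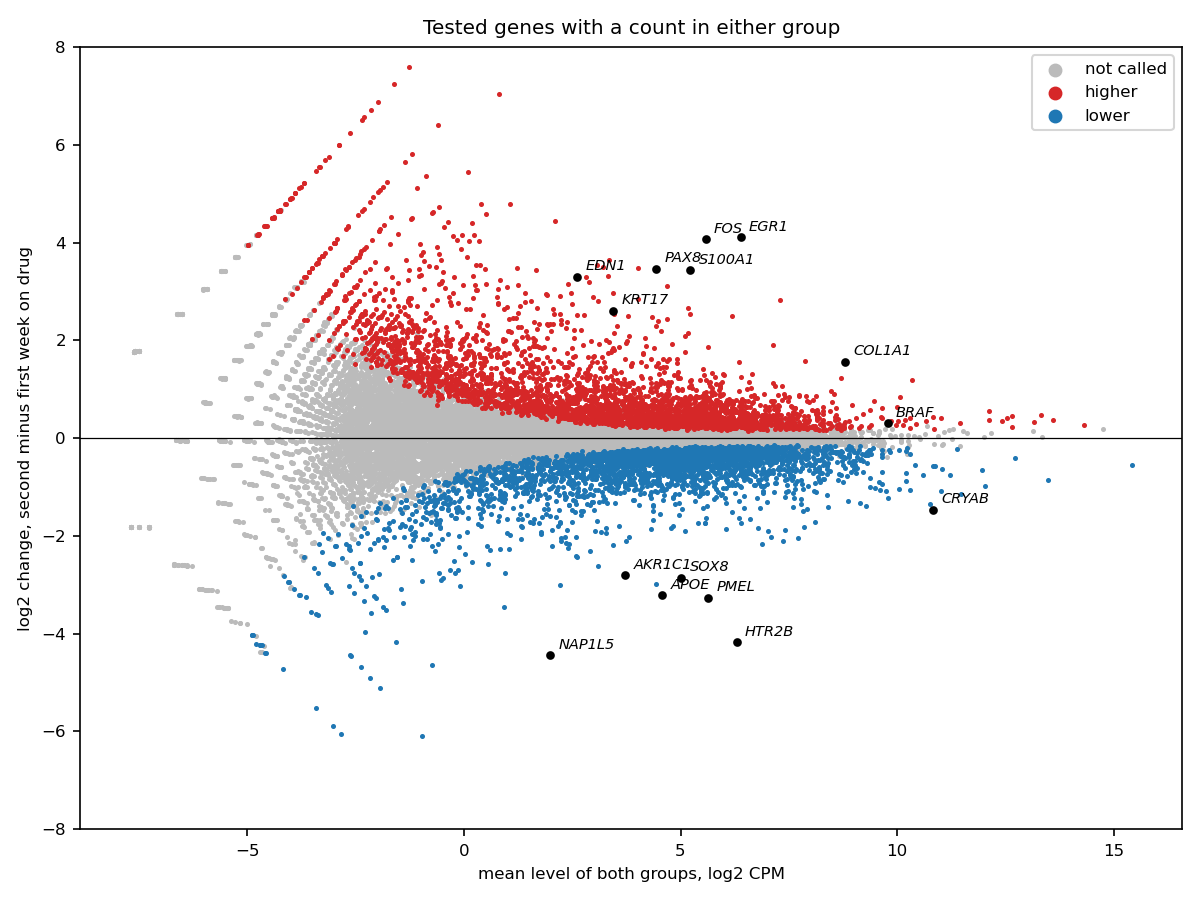
Each point is a tested gene, with the mean level of the first and second exposure (log2 CPM) across and the log2 change (second minus first) upwards. Red and blue points passed an adjusted p of 0.05. EGR1 and FOS stand 4.10 and 4.06 above 0 and HTR2B 4.18 below it, at levels where most genes lie within 1 of 0.

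Early transcription factors were among the 12 largest rises. EGR1 (chr5:138465490-138469315, GRCh38), a zinc-finger factor that growth signals switch on within minutes, stood at 9.10, 8.74 and 9.84 CPM in the 3 libraries of the first exposure and at 164, 152 and 160.1 CPM in those of the second. FOS (chr14:75278774-75282230), a subunit of the AP-1 factor, stood at 5.09, 5.42 and 5.63 CPM and then at 101, 92.1 and 77.4 CPM. The groups lay far apart for both genes. EGR1 was 17.2-fold higher (log2 change 4.10, SE 0.13, edgeR adjusted p = 7.58e-20) and FOS 16.7-fold higher (log2 change 4.06, SE 0.14, edgeR adjusted p = 3.43e-19). FOSB, a second AP-1 subunit, rose from a mean of 2.66 to 29.8 CPM (log2 change 3.49, edgeR adjusted p = 8.35e-15).

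A stretch of the EGR1 promoter is shown because serum response factor, an activator of early genes, is known to bind such elements. The stretch is from RefSeq (GRCh38.p14), chr5:138465304-138465403 on the plus strand, 5′ to 3′. Capitals mark the match on either strand to CCATAT followed by any base and AGG, the core of the element, which ends 96 bases before the start annotated by RefSeq.

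EGR1: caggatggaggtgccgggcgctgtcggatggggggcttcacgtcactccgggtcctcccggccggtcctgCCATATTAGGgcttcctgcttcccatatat

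These letters occur within 250 bases before the start in 12 of the 11857 tested genes with a promoter entry (0.101%), in 2 of the 694 that rose by at least 2-fold (0.288%) and in 0 of the 317 that fell by at least 2-fold. A match is a description of the sequence and not a measured binding site.

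Other early genes moved the opposite way. Of 16 immediate early genes tested, 5 rose and 7 fell. NR4A2, an orphan nuclear receptor, stood at 75.3, 70.2 and 74.7 CPM at the first exposure and 20.9, 20.5 and 24.4 CPM at the second, without overlap (log2 change -1.74, SE 0.08, edgeR adjusted p = 1.1e-16). Its relatives NR4A1 and NR4A3 fell by 0.95 and 0.95 on the log2 scale, and KLF4, a zinc-finger factor linked to growth arrest, fell by 1.07. The median log2 change of the list was -0.25 against 0.02 over all tested genes. Against 14 days of unbroken drug, 11 of the 16 were higher and 0 lower (5.35% and 5.44% of all tested genes were higher and lower in that comparison). Over all genes, that comparison gave 1097 higher and 1115 lower, and 316 and 211 with only its 6 libraries in the fit. EGR1 was at 48.4 CPM there, 3.28-fold below the second exposure (edgeR adjusted p = 6.92e-12), and FOSB at 5.84 CPM, 5.09-fold below it (edgeR adjusted p = 4.97e-11). Against 21 days of unbroken drug, 5 were higher and 6 lower (14% and 14.3% of all tested genes). EGR1 and FOS were then at 289 and 182 CPM, above the second exposure, with log2 differences of -0.86 and -1.01. Both comparisons with unbroken drug share the 3 libraries of the second exposure with the comparison of exposures, so none of them is independent of the others.

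**Figure D2:**
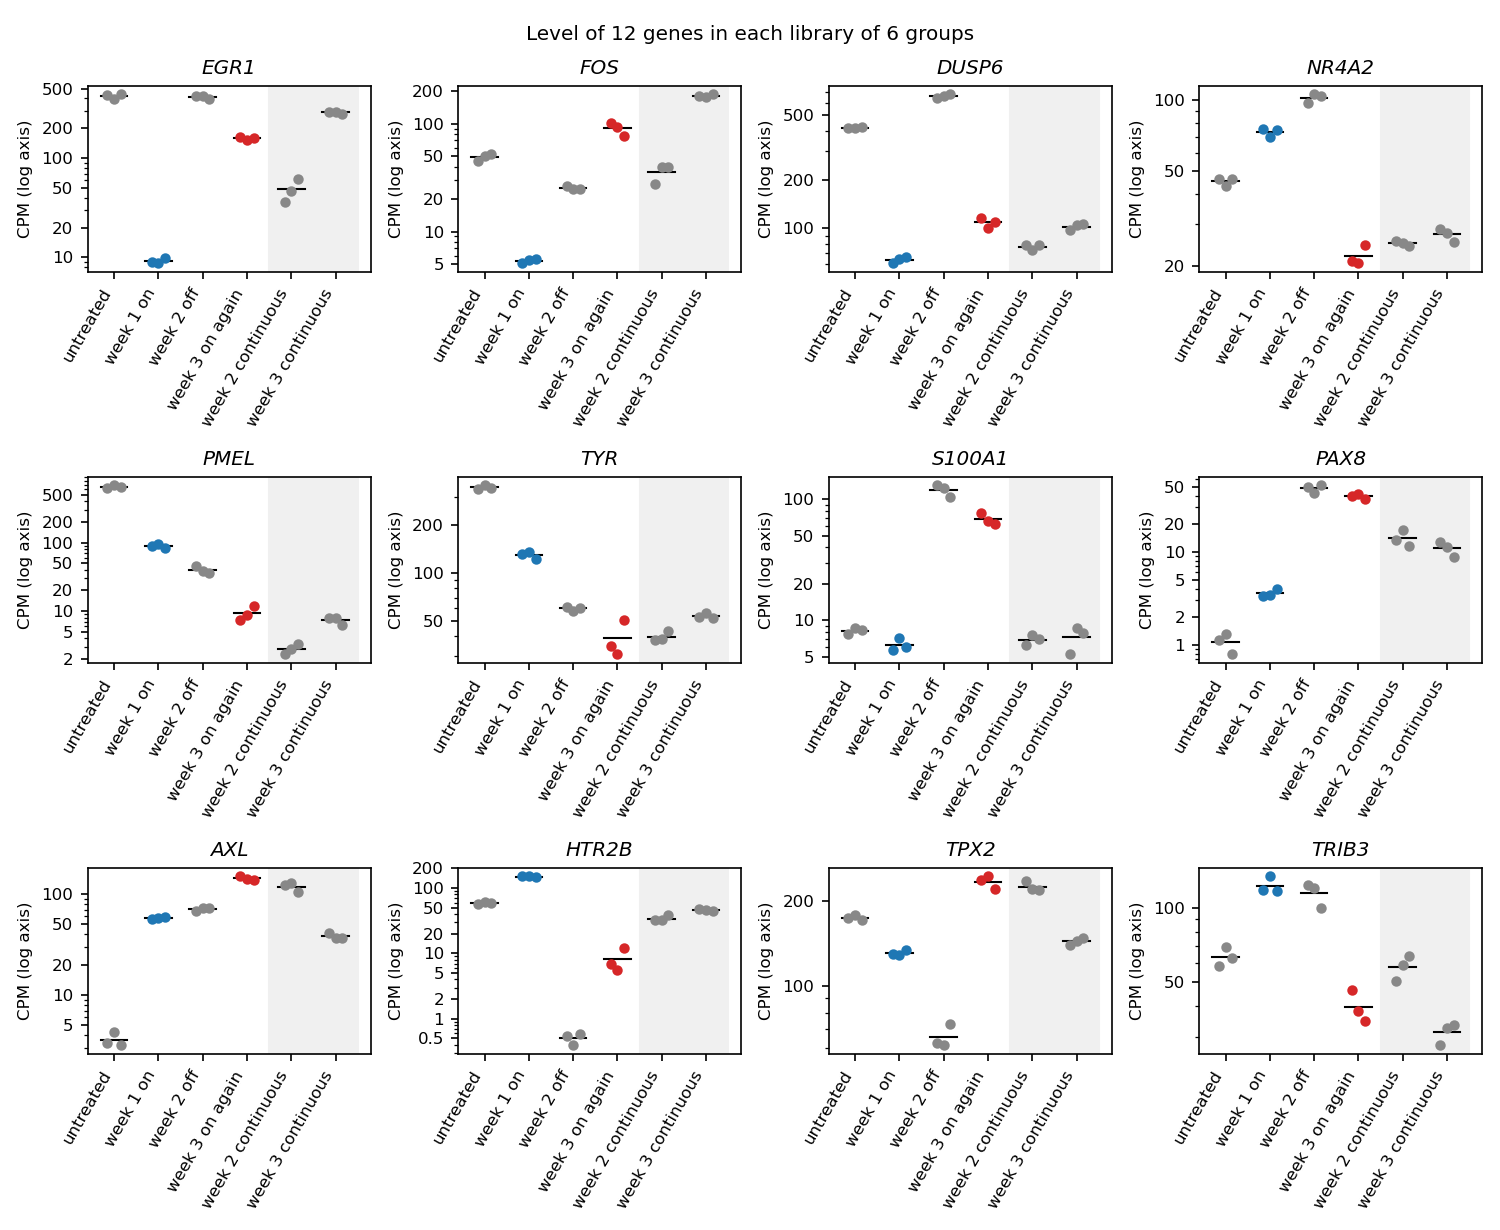
Points are the CPM of single libraries on a log axis for 12 genes, lines are means of 3 libraries, blue is the first exposure (week 1 on), red the second (week 3 on again), and the shaded groups stayed on drug without a break. S100A1 and PAX8 are high at the end of the drug-free week and in the second exposure, EGR1 is at 9.22 CPM on average at the first and 158.7 CPM at the second exposure, and HTR2B is lowest in the drug-free week.

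Direct ERK outputs and feedback genes split. Of 23 tested, 8 rose and 8 fell, and 5 fell when replicate 1 of the second exposure was left out. DUSP6 stood at 60.9, 64.9 and 66.1 CPM at the first exposure and 116, 101 and 109 CPM at the second, a 1.7-fold rise (SE of the log2 change 0.06, edgeR adjusted p = 8.7e-11). In untreated cells it was at 421 ± 4.38 CPM, so both exposures stayed well below that level. The ETS factor ETV4 rose from 11.3 to 19.2 CPM, the survival gene IER3 from 65.5 to 134 CPM, and the cytokine LIF from 35.9 to 77.4 CPM. SPRY1, an inhibitor of receptor kinase signalling, fell from 3.61 to 1.15 CPM and the phosphatase DUSP4 from 174 to 106 CPM. The cyclin CCND1 was at 1118 ± 23.2 CPM and 1074 ± 40.8 CPM and its groups overlapped (edgeR adjusted p = 0.507). SPRY4, a close relative of SPRY1, also overlapped, at 110.2 ± 4.33 and 101 ± 8.55 CPM (edgeR adjusted p = 0.286). FOSL1, an AP-1 subunit stabilised by ERK, rose from 331 to 426 CPM (log2 change 0.36, edgeR adjusted p = 0.00074). Exons of antisense genes in GENCODE 29 cover 40.5% of the exon bases of DUSP6, and its counts may include them, since it is not known whether reads were counted by strand.

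BRAF was at 803, 757 and 805 CPM at the first exposure and 853, 910.4 and 1160 CPM at the second, a log2 change of 0.31 (SE 0.08, edgeR adjusted p = 0.00232). Without replicate 3 of the second exposure, which held the highest value, the change was 0.16 and its adjusted p 0.0716.

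The pigment programme was lower at the second exposure. Of 18 tested members, 11 fell and 3 rose, with a median log2 change of -1.05. Without replicate 3 of the second exposure, 1 rose. Against 14 days of unbroken drug 2 members were higher and 2 lower (5.35% and 5.44% of all tested genes), with a median log2 difference of 0.035. Against 21 days 1 was higher and 12 lower (14% and 14.3% of all tested genes), with a median of -0.505. PMEL (chr12:55954105-55973317), the fibril protein of the melanosome, stood at 90.1, 96.8 and 83.0 CPM in the first exposure and 7.35, 8.78 and 12 CPM in the second. That is 9.6-fold lower with no overlap (log2 change -3.26, SE 0.14, edgeR adjusted p = 9.72e-17). MLANA, a melanosome membrane protein and the antigen MART-1, stood at 38.5, 38.5 and 37.5 CPM and 3.53, 3.11 and 7.98 CPM, 7.88-fold lower (edgeR adjusted p = 1.43e-13). TYR (chr11:89177452-89295759), the rate-limiting enzyme of melanin synthesis, stood at 132, 135 and 123 CPM and 34.8, 30.9 and 50.9 CPM, 3.34-fold lower (edgeR adjusted p = 8.41e-14). TYRP1, a second melanin enzyme, fell from 9.84 to 3.5 CPM (log2 change -1.49). Replicate 3 of the second exposure was the highest of its group for PMEL, MLANA and TYR, and for all 3 genes it still lay below every library of the first exposure. In bulk RNA, fewer cells with a gene on and less of its RNA per cell cannot be told apart.

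MITF, which activates these genes, did not follow them. It stood at 11.6, 11.5 and 11.1 CPM at the first exposure and 13.7, 14.4 and 20.7 CPM at the second, a log2 change of 0.51 (SE 0.13, edgeR adjusted p = 0.00255), against 349 ± 10.7 CPM in untreated cells. Without replicate 3 of the second exposure the change was 0.30 and its adjusted p 0.0655. RAB27A, a GTPase that moves melanosomes to the cell edge, rose from 10.8 to 16.6 CPM (log2 change 0.62, edgeR adjusted p = 2.96e-07).

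Promoter stretches of 2 melanin enzymes and of GPNMB, a melanosome and lysosome glycoprotein that fell by 1.05 on the log2 scale, are shown because MITF is known to bind the letters CATGTG. They are RefSeq sequences (GRCh38.p14) before the starts annotated by RefSeq, 5′ to 3′ on the plus strand, at chr11:89177771-89177874, chr9:12693285-12693384 and chr7:23246639-23246738. Capitals mark CATGTG or its reverse complement CACATG, and a second match of TYRP1 lies outside the stretch shown. The GENCODE 29 gene models used for gene positions begin further upstream, so all 3 stretches lie inside those models.

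TYR: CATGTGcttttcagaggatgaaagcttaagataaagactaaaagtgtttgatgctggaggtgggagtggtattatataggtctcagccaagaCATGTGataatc
TYRP1: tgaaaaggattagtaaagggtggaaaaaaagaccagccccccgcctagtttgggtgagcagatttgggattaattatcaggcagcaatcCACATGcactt
GPNMB: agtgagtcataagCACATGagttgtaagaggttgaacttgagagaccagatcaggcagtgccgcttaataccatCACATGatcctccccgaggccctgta

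Within 250 bases before the start, CATGTG on either strand was found in 750 of 11857 tested genes with an entry (6.33%), in 38 of the 317 that fell by at least 2-fold (12%) and in 61 of the 694 that rose by at least 2-fold (8.79%). These shares describe the sequences and were not tested.

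Genes outside that list made up 10 of the 12 largest falls. HTR2B (chr2:231108230-231125118), a serotonin receptor gene, was at 151, 150.5 and 146 CPM at the first exposure and 6.82, 5.67 and 12.2 CPM at the second. Its 18.1-fold fall (log2 change -4.18, SE 0.17, edgeR adjusted p = 1.56e-17) was second in size to that of NAP1L5 among these 12 genes. HTR2B was at 0.51 ± 0.104 CPM at the end of the drug-free week and at 34.1 ± 3.46 and 46.1 ± 1.79 CPM after 14 and 21 days of unbroken drug, and the second exposure lay below both unbroken groups (edgeR adjusted p = 3.2e-10 and 6.76e-13). NAP1L5, which encodes a nucleosome assembly protein-like factor, went from 7.36, 7.91 and 7.50 CPM to 0.558, 0.366 and 0.0985 CPM (log2 change -4.44, edgeR adjusted p = 6.07e-16). APOE, a lipid carrier, went from 41.6, 47.9 and 40.3 CPM to 5.33, 3.84 and 4.76 CPM, and SOX8, a transcription factor of the same family as the lineage factor SOX10, from 58.4, 58.7 and 53.5 CPM to 9.43, 5.15 and 8.99 CPM. APOE was 9.32-fold and SOX8 7.25-fold lower (edgeR adjusted p = 1.96e-16 and 7.05e-16). WFDC1, which encodes a secreted protease inhibitor-like protein, fell by 3.01 on the log2 scale. Falls of 2.31 to 2.80 were measured for AKR1C1, COL3A1, ARHGAP24, PRKG2, a cyclic GMP-dependent kinase, and NDNF, a secreted factor of neurons.

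Of 15 tested genes that mark a neural crest-like, dedifferentiated melanoma state, 7 fell and 4 rose. NGFR, a neurotrophin receptor and a usual marker of drug-tolerant cells, fell from 360.1, 364 and 357 CPM to 242, 222 and 229 CPM (log2 change -0.64, SE 0.07, edgeR adjusted p = 1.12e-08), against 7.61 ± 0.345 CPM in untreated cells. The homeobox gene DLX5 fell from 59.6 to 26.1 CPM and the fatty acid receptor CD36 from 163 to 77.5 CPM. TNC, the matrix protein tenascin C, rose from 798 to 1815 CPM (log2 change 1.18, edgeR adjusted p = 6.58e-10).

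Genes of the invasive melanoma state rose: 16 of 24 were higher and 0 lower, with a median log2 change of 0.47. Under the alternatives that were run, 15 to 17 were higher and 0 or 1 lower. AXL (chr19:41219203-41261766), a receptor kinase of that state, stood at 56.3, 58.5 and 58.8 CPM and then 149.5, 140.2 and 138 CPM, 2.46-fold higher (log2 change 1.30, SE 0.09, edgeR adjusted p = 1.1e-12). WNT5A, a non-canonical Wnt ligand, stood at 41.6, 41.2 and 40.7 CPM and then 119, 114 and 131 CPM, 2.96-fold higher (edgeR adjusted p = 1.36e-14). INHBA, the subunit that forms activin A, stood at 10.6, 8.80 and 10.4 CPM and then 49.4, 68.7 and 68.7 CPM, 6.29-fold higher (edgeR adjusted p = 2.28e-13). The ephrin receptor EPHB2 rose from 1.41 to 5.19 CPM. Against 21 days of unbroken drug these genes were not ordered alike. AXL was at 38.0 ± 2.56 CPM after 21 days of unbroken drug, 3.76-fold below the second exposure (edgeR adjusted p = 2.83e-16), while WNT5A was at 239 ± 21.0 CPM there, 1.97-fold above it (edgeR adjusted p = 1.59e-10). INHBA was at 62.9 ± 12.3 CPM and overlapped with the second exposure (log2 difference -0.01, edgeR adjusted p = 0.97), and EPHB2, at 6.74 ± 0.764 CPM, overlapped too. After 14 days of unbroken drug AXL was at 118 ± 12.2 CPM, 1.21-fold below the second exposure (edgeR adjusted p = 0.0428), a call with an adjusted p of 0.0149 to 0.281 over the alternatives. It was lost with only the libraries compared (0.234), without replicate 1 (0.051) or 3 (0.14) of week 2 continuous, without replicate 1 (0.114) or 2 (0.0755) of the second exposure and without both libraries that stood apart (0.281).

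Among receptor kinases as a whole, 8 of 20 rose and 4 fell. EGFR, the epidermal growth factor receptor, stood at 1.62, 0.866 and 1.38 CPM at the first exposure and 8.59, 8.81 and 12.1 CPM at the second (log2 change 2.96, SE 0.25, edgeR adjusted p = 3.26e-10). After 14 and 21 days of unbroken drug it was higher still, at 19.4 ± 5.08 and 44.8 ± 7.53 CPM (log2 differences of the second exposure -0.98 and -2.18, edgeR adjusted p = 0.000811 and 3.52e-10). PDGFRB, a platelet-derived growth factor receptor, rose from 3.43 to 9.10 CPM. ERBB4 and FGFR3 fell, from 3.97 to 1.12 CPM and from 28.0 to 11.9 CPM. Of 23 ligands, 9 rose and 9 fell. PDGFC and PDGFD rose, to 17.9 and 14.0 CPM from 8.21 and 5.11 CPM, while PDGFB fell from 7.39 to 3.77 CPM and PROS1, a ligand of the AXL family, from 60.1 to 28.3 CPM.

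Matrix and cytoskeletal genes moved in both directions. Of 22 extracellular matrix genes, 7 rose and 8 fell, a median log2 change of -0.04. COL1A1 (chr17:50183289-50201632), a chain of type I collagen, stood at 227, 226 and 218 CPM and then 719, 662 and 602 CPM (log2 change 1.56, SE 0.13, edgeR adjusted p = 6.21e-11). COL6A3, a chain of type VI collagen, rose from 15.8 to 53.1 CPM, and the proteoglycan LUM from 1.35 to 7.87 CPM. COL3A1, the type III collagen chain, stood at 9.71, 11.1 and 10.1 CPM and then 2.29, 1.65 and 1.77 CPM, 5.41-fold lower (edgeR adjusted p = 9.04e-12). POSTN, the matrix protein periostin, stood at 7.05, 6.41 and 6.71 CPM and then 1.74, 1.46 and 1.12 CPM, 4.64-fold lower (edgeR adjusted p = 1.46e-10). SPARC fell from 4876 to 3089 CPM. Of 18 matrix proteases and inhibitors 5 rose and 7 fell. The collagenase MMP1 stood at 2554, 2489 and 2441 CPM and then 1176, 792 and 984 CPM, MMP2 fell from 958 to 472 CPM, and the inhibitors TIMP3 and SERPINE2 fell from 1055 to 548 CPM and from 5596 to 2841 CPM. Integrins counted 5 of 15 higher and 2 lower, against 16.6% and 14.5% of all tested genes. Contractile genes counted 8 of 18 higher and 1 lower, the exception being CRYAB, a small heat shock protein also listed there, at 2634, 2836 and 2549 CPM and then 992, 988 and 929.6 CPM (log2 change -1.46, edgeR adjusted p = 2.39e-11). The tropomyosin TPM1 rose from 773 to 1387 CPM. YAP and TEAD targets counted 5 of 18 higher and 1 lower, or 8 higher without replicate 1 of the second exposure, and their member CTGF, a matricellular growth factor, rose from 493 to 689.7 CPM. TGF-beta and activin genes counted 9 of 22 higher and 5 lower.

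Markers of fibroblasts share several of these matrix genes: 5 of 10 rose and 3 fell, and their summed level was 316 to 323 CPM at the first exposure and 713 to 843 CPM at the second. COL1A1 was the largest contributor. The sum was higher after unbroken drug, at 1162 to 1226 CPM after 14 days and 1799 to 1890 CPM after 21 days. Their part in the changes of matrix genes was not tested. Markers of T and NK cells summed to at most 0.404 CPM in both groups, with CD2, CD3D, GNLY and NKG7 at 0 counts in all 6 libraries. Markers of macrophages summed to 0.493 to 0.952 CPM at the first and 1.46 to 1.89 CPM at the second exposure, with AIF1 and TYROBP at 0 counts, and 3 of the 4 tested rose (1 without replicate 3 of the first exposure). The sums of endothelial markers (23 to 33.7 CPM, CDH5 at 0) and of keratinocyte markers (18.1 to 25.5 CPM) overlapped between the exposures. Of 5 tested keratinocyte markers 2 rose and 0 fell: KRT14 rose from 1.62, 1.59 and 1.22 CPM to 4.03, 2.68 and 2.95 CPM, and KRT5 had 0 counts in all libraries of the first exposure and 39 in those of the second, at 0.651, 0.335 and 0.23 CPM.

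The 12 largest rises differed in their level at the end of the drug-free week. EGR1, at 414 ± 17.5 CPM then and 419.6 ± 25.1 CPM in untreated cells, stood above the second exposure at both. FOS was at 25.3 ± 0.763 CPM and FOSB at 19.1 ± 0.989 CPM in the drug-free week, between their levels at the first and the second exposure, and at 49.1 and 5.56 CPM in untreated cells. S100A1, PAX8 and CACNA2D3 were above their second-exposure means in the drug-free week. S100A1 (chr1:153627926-153632039), a calcium-binding protein, stood at 5.67, 7.21 and 6.05 CPM at the first exposure and 77.2, 66.1 and 62.0 CPM at the second, 10.8-fold higher (log2 change 3.43, SE 0.17, edgeR adjusted p = 9.4e-16). It stood at 129.8, 123 and 104 CPM in the drug-free week. Unbroken drug left it at 6.94 ± 0.701 CPM after 14 days and 7.24 ± 1.76 CPM after 21 days, 9.82-fold and 9.34-fold below the second exposure (edgeR adjusted p = 2e-14 and 1.72e-15). PAX8 (chr2:113215997-113278950), a paired-box transcription factor of thyroid and kidney, stood at 3.31, 3.46 and 3.95 CPM and then 39.9, 42.0 and 36.7 CPM, 11-fold higher (edgeR adjusted p = 5.66e-16). It was at 48.1 ± 4.44 CPM in the drug-free week and at 14.0 ± 2.81 and 11 ± 1.97 CPM under unbroken drug, 2.82-fold and 3.62-fold below the second exposure (edgeR adjusted p = 1.04e-08 and 2.62e-11). CACNA2D3, a calcium channel subunit, rose from 1.5 to 18.8 CPM and was at 27.3 CPM in the drug-free week.

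The other 6 of these rises were below their second-exposure level in the drug-free week. ADAMTS12, a secreted metalloprotease, stood at 1.35, 2.11 and 1.97 CPM and then 16.7, 17.7 and 20.1 CPM, 9.89-fold higher (edgeR adjusted p = 6.2e-13), with 3.23 ± 1.28 CPM in the drug-free week. EDN1, the peptide endothelin 1, stood at 1.23, 1.21 and 0.921 CPM and then 11.3, 11.4 and 10.6 CPM, 9.87-fold higher (edgeR adjusted p = 1.08e-14), with 0.245 ± 0.0999 CPM in the drug-free week. Under unbroken drug ADAMTS12 was at 15.4 and 28.7 CPM and EDN1 at 6.75 and 23.1 CPM after 14 and 21 days. TENM2 and SDK1, which encode cell adhesion proteins of neurons, rose 11.6-fold and 11.3-fold to 15.4 and 17.1 CPM (edgeR adjusted p = 1.11e-12 and 2.72e-13), with 3.08 and 2.66 CPM in the drug-free week. The noncoding gene ESRG rose from 0.375 to 8.22 CPM, with 3.15 CPM in the drug-free week. KRT16, a keratin of stressed epithelium, rose from 0.522 to 5.83 CPM, with 2.06 CPM in the drug-free week. KRT17, another such keratin but not among the 12 largest rises, rose from 3.05 to 18.8 CPM, with 2.24 CPM in the drug-free week. Both keratins have near-identical copies that could share reads. KRT17 was also 4.74-fold above 14 days and 4.18-fold above 21 days of unbroken drug (edgeR adjusted p = 1.32e-09 and 6.75e-10).

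The promoter of ADAMTS12 is shown because it matches TGANTCA, a loose form, with any middle base, of the AP-1 site that FOS family dimers bind. The stretch is from RefSeq (GRCh38.p14), chr5:33892048-33892147 on the minus strand, 5′ to 3′. Capitals mark the match, which has A as its middle base and ends 78 bases before the RefSeq start. The GENCODE 29 gene model begins further upstream and holds the stretch.

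ADAMTS12: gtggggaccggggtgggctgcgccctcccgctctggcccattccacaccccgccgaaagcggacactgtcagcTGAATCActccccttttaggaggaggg

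The letters TGANTCA, with any middle base, were searched on both strands in the 250 bases before the start. They were in 530 of 11857 tested genes with an entry (4.47%). Of genes that rose at least 2-fold, 57 of 694 held them (8.21%), and of those that fell at least 2-fold, 15 of 317 (4.73%). These shares were not tested.

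Cell division genes were higher at the second exposure. Of 21 genes of mitosis, 20 rose and 0 fell, with a median log2 change of 0.73. TPX2 (chr20:31739271-31801805), a spindle assembly factor, stood at 129, 128 and 134 CPM and then 237, 243 and 219.5 CPM (log2 change 0.84, SE 0.08, edgeR adjusted p = 5.71e-10). KIF23, a kinesin of cell cleavage, stood at 75.7, 70.8 and 82.3 CPM and then 135, 133 and 135 CPM (log2 change 0.82, edgeR adjusted p = 4.85e-10). The proliferation marker MKI67 stood at 124, 117 and 126 CPM and then 167, 234 and 249 CPM (log2 change 0.83, SE 0.21, edgeR adjusted p = 0.0021). Replicate 1 of the second exposure was the lowest of its group for MKI67 but above all libraries of the first exposure.

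Of 22 genes of the G1/S step and DNA replication, 16 rose and 0 fell, with a median log2 change of 0.37. The replication licensing factor CDC6 stood at 32.6, 30.8 and 35 CPM and then 52.3, 47.9 and 50.2 CPM, and RRM2, the subunit that limits ribonucleotide reductase, at 154, 156 and 166 CPM and then 244, 218 and 232 CPM. Against 14 days of unbroken drug, 0 members of either list passed edgeR's test in either direction (5.35% of all tested genes were higher and 5.44% lower). At an unadjusted p under 0.05, 4 replication genes were higher and 2 lower and 3 mitosis genes were higher and 0 lower, and DESeq2 called 2 replication genes higher. By contrast, 21 of 22 replication genes and 20 of 21 mitosis genes were above 21 days of unbroken drug (14% of all tested genes). RRM2 was at 224, 218 and 246 CPM after 14 days and 119, 125 and 125 CPM after 21 days of unbroken drug. Its 21-day libraries lay below all libraries of the first exposure, and those of the second exposure lay above them (log2 difference of second exposure and 21 days 0.91, SE 0.07, edgeR adjusted p = 5.11e-12). In the drug-free week, RRM2 was at 113 ± 6.09 CPM and TPX2 at 65.7 ± 6.23 CPM, below every library of both exposures.

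CDK inhibitors and p53 targets counted 2 of 18 higher and 7 lower, or 4 higher without replicate 1 of the second exposure. GDF15, a stress cytokine and p53 target, stood at 267, 295 and 248 CPM and then 88.8, 69.6 and 61.8 CPM, 3.68-fold lower (edgeR adjusted p = 1.04e-12). CDKN1A, the inhibitor p21, was at 718, 783 and 728 CPM and then 686, 615 and 621 CPM, a log2 change of -0.21 (edgeR adjusted p = 0.0199) that missed the threshold without replicate 2 (0.0589) or 3 (0.0584) of the second exposure or replicate 2 of the first (0.109). In the BCL2 family 3 of 15 rose and 3 fell, against 16.6% and 14.5% of all tested genes. The death-promoting members BCL2L11 and BBC3 fell by 0.99 and 0.67 on the log2 scale, from 17.6 and 13.1 to 8.84 and 8.28 CPM, and PMAIP1, another of that kind, rose by 0.66.

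ATF4 and NRF2 targets were lower. Of 19 tested targets of ATF4, the factor of the amino acid and endoplasmic reticulum stress response, 16 fell and 0 rose, with a median log2 change of -0.49. TRIB3 (chr20:362835-397559), a pseudokinase of that response, stood at 119, 135 and 118 CPM and then 46.4, 37.9 and 34.7 CPM, 3.11-fold lower (log2 change -1.64, SE 0.11, edgeR adjusted p = 4.04e-13). DDIT4, an inhibitor of the growth kinase mTORC1, stood at 65.0, 71.6 and 63.4 CPM and then 36.5, 30.9 and 24.2 CPM (log2 change -1.13). DDIT3, the factor CHOP, fell from 55.1 to 28.3 CPM and SESN2 from 94.7 to 50.4 CPM (edgeR adjusted p = 1.4e-07 and 6.34e-10). Exons of antisense or other opposite-strand genes cover 41.2% of the exon bases of DDIT4 and 31.6% of those of DDIT3. Against 14 days of unbroken drug 1 was higher and 5 lower (5.35% and 5.44% of all tested genes). Against 21 days 14 were higher and 2 lower (14% and 14.3% of all tested genes). The unfolded protein response list, by contrast, counted 5 of 15 higher and 5 lower, or 3 and 3 without replicate 1 of the second exposure.

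Of 14 targets of NRF2, the factor of the oxidative stress response, 9 fell and 2 rose. Without replicate 2 of the second exposure, 6 fell. AKR1C1, a ketosteroid reductase, stood at 24.3, 24.3 and 21.0 CPM and then 4.25, 3.02 and 2.69 CPM, 6.97-fold lower (edgeR adjusted p = 2.72e-13), although reads can be shared with its close relatives. OSGIN1, an oxidative stress-induced growth inhibitor, stood at 266, 305 and 268 CPM and then 117, 98.0 and 103 CPM, 2.64-fold lower (edgeR adjusted p = 6.92e-13). SLC7A11, the cystine importer, fell from 589.6, 523 and 559 CPM to 247, 318 and 333 CPM, and HMOX1, heme oxygenase 1, rose from 163, 185 and 165 CPM to 285, 235 and 197 CPM. The second exposure had 9 of the 14 below 14 days of unbroken drug and 7 below 21 days, with 0 and 2 above. Of all tested genes, 5.44% and 14.3% were below, and 5.35% and 14% above. Heat shock genes counted 2 of 11 higher and 3 lower, and 13 of 22 lysosome genes fell while 2 rose. The lysosomal protease CTSD fell from 1536 to 834 CPM and GPNMB from 1692 to 815 CPM. A neighbouring gene on the same strand covers 41.7% of the exon bases of CTSD.

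**Figure D3:**
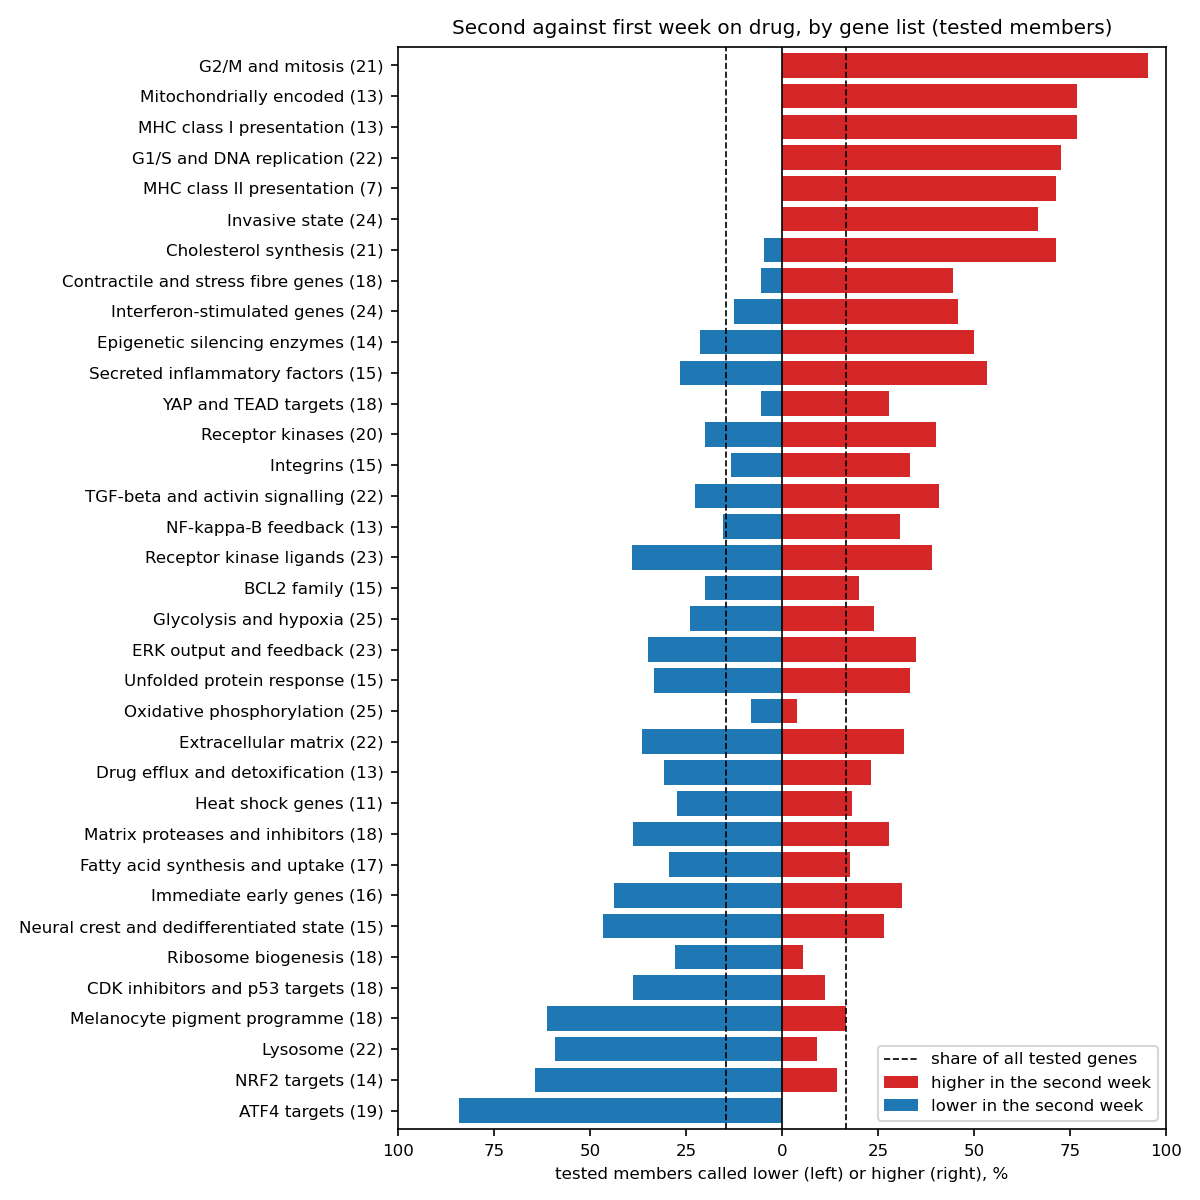
Bars give the percentage of each list's tested members (number in brackets) called higher (red, right) or lower (blue, left) at the second exposure, and dashed lines the 16.6% and 14.5% of all tested genes. Mitosis genes reach furthest right, with 20 of 21 higher, and ATF4 targets furthest left, with 16 of 19 lower.

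Antigen presentation genes rose. Of 13 MHC class I genes 10 rose and 0 fell, and of 7 class II genes 5 rose and 0 fell, with median log2 changes of 0.50 and 0.79. HLA-B stood at 37.4, 38.6 and 34.7 CPM and then 109, 81.1 and 81.3 CPM (log2 change 1.29, SE 0.14, edgeR adjusted p = 1.28e-08), although reads of HLA genes can be shared between family members. PSMB9, a subunit of the immunoproteasome, stood at 15.2, 16.4 and 14.7 CPM and then 40.6, 31.6 and 28.1 CPM. NLRC5, the transactivator of class I genes, stood at 3.47, 4.01 and 3.16 CPM and then 7.69, 10.2 and 8.14 CPM (edgeR adjusted p = 1.24e-07). CD74 (chr5:150401637-150412929), the class II invariant chain, stood at 6.09, 5.97 and 5.76 CPM and then 14.8, 15.5 and 11.2 CPM (log2 change 1.22, edgeR adjusted p = 9.45e-08). Against 21 days of unbroken drug the order was the opposite. There 10 of 13 class I and 7 of 7 class II genes were lower at the second exposure and 0 higher. Of all tested genes, 14.3% were lower and 14% higher against 21 days. CD74 was at 41.7 ± 5.27 CPM there, 3.01-fold above the second exposure (edgeR adjusted p = 5.58e-11), and at 12.4 ± 0.0947 CPM after 14 days.

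Interferon-stimulated genes counted 11 of 24 higher and 3 lower, and 7 higher without replicate 3 of the second exposure. OAS2 and OAS1, sensors of double-stranded RNA, stood at 0.886, 0.981 and 1.09 and 1.73, 1.62 and 2.11 CPM at the first exposure and at 4.40, 5.43 and 5.61 and 4.90, 5.92 and 4.89 CPM at the second. MX2, an antiviral GTPase, went the other way, from 49.1, 50.8 and 49.7 CPM to 22.6, 22.8 and 24.3 CPM (log2 change -1.10, edgeR adjusted p = 1.14e-12). Against 21 days of unbroken drug 19 of the 24 were lower and 0 higher (14.3% and 14% of all tested genes).

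Secreted inflammatory factors counted 8 of 15 higher and 4 lower. The cytokine IL6 rose from 2.08, 1.88 and 2.80 CPM to 8.0, 7.11 and 5.12 CPM (edgeR adjusted p = 2.02e-06), and PTGS2, the inducible cyclooxygenase, fell from 7.63, 7.88 and 8.69 CPM to 3.29, 3.17 and 3.58 CPM (edgeR adjusted p = 1.47e-08). NF-kappa-B feedback genes counted 4 of 13 higher and 2 lower, with NFKB1 down by 0.56 on the log2 scale and NFKBIZ up by 1.14.

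**Figure D4:**
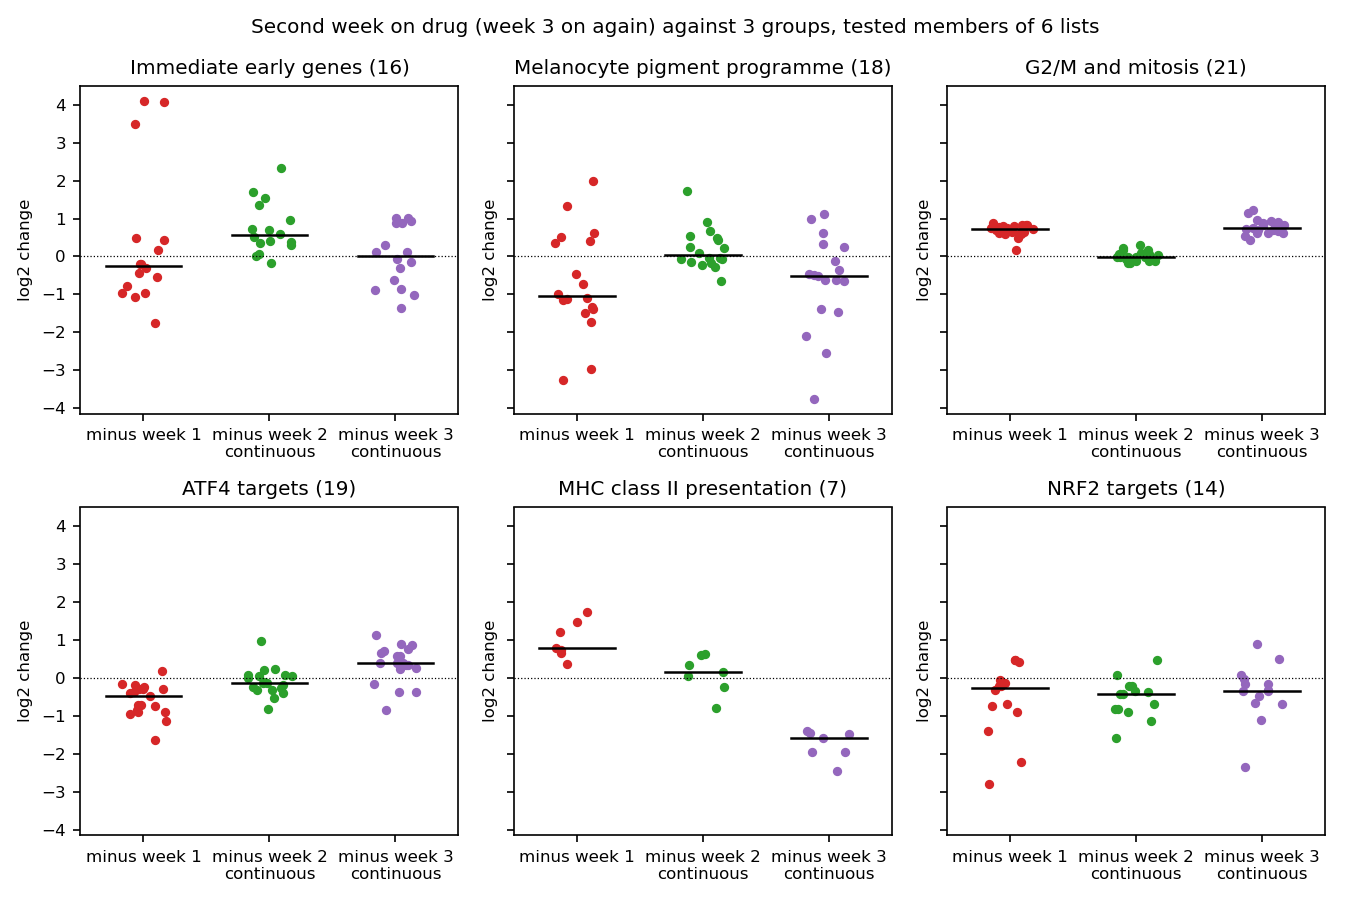
Points are tested members of 6 lists, with the log2 difference of the second exposure from the first exposure (red), from 14 days of unbroken drug (green) and from 21 days of unbroken drug (purple), and lines are medians. Mitosis genes lie above 0 against the first exposure and 21 days and around 0 against 14 days, while MHC class II genes lie above 0 against the first exposure and below 0 against 21 days.

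Of 21 genes of cholesterol synthesis and uptake, 15 rose and 1 fell, with a median log2 change of 0.38. STARD4, a sterol carrier, stood at 13.3, 14.0 and 14.4 CPM and then 32.8, 34.5 and 39.2 CPM (log2 change 1.35, SE 0.09, edgeR adjusted p = 3.23e-13). Fatty acid genes counted 3 of 17 higher and 5 lower, against 16.6% and 14.5% of all tested genes. SREBF1, the transcription factor of fatty acid synthesis, stood at 58.2, 65.5 and 56.2 CPM and then 30.2, 28.9 and 29.1 CPM (log2 change -1.03, edgeR adjusted p = 8.7e-11), and FABP3, a fatty acid binding protein, fell from 15.3 to 3.96 CPM.

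Of 13 mitochondrially encoded genes 10 rose and 0 fell, with a median log2 change of 0.42, alongside the higher mitochondrial share of counts given above. Without replicate 2 of the first exposure, 5 rose. MT-ND2, a subunit of complex I, stood at 3593, 3297 and 3897 CPM and then 5404, 5175 and 5361 CPM (edgeR adjusted p = 0.000488), although nuclear copies of mitochondrial genes can share reads. The nuclear genes of oxidative phosphorylation counted 1 of 25 higher and 2 lower, or 2 and 5 without replicate 1 of the second exposure, against 16.6% and 14.5% of all tested genes. Glycolysis and hypoxia genes counted 6 of 25 higher and 6 lower: LDHA, lactate dehydrogenase A, rose from 533 to 794 CPM and VEGFA, the angiogenic growth factor, fell from 212, 209 and 209 CPM to 125, 119 and 126 CPM. Ribosome biogenesis genes counted 1 of 18 higher and 5 lower, or 2 lower without replicate 2 of the second exposure.

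Transporters of drugs and detoxification genes counted 3 of 13 higher and 4 lower, against 16.6% and 14.5% of all tested genes. When replicate 2 of the first exposure was left out, 1 was higher. ABCG2 (chr4:88090264-88231322), an efflux pump of many inhibitors, stood at 18.9, 17.5 and 16.4 CPM and then 7.97, 8.39 and 8.34 CPM, 2.14-fold lower (log2 change -1.10, SE 0.10, edgeR adjusted p = 6.99e-10). It was also lower than after 14 days (16.7 ± 2.19 CPM) and 21 days (19.4 ± 2.0 CPM) of unbroken drug, by log2 differences of -1.02 and -1.24 (edgeR adjusted p = 2.24e-08 and 5.47e-11). ABCC1, the multidrug pump MRP1, stood at 96.6, 95.3 and 87.4 CPM and then 54.4, 60.4 and 57.2 CPM, and lay below both unbroken groups as well (log2 differences -0.80 and -0.69, edgeR adjusted p = 7.82e-09 and 1.88e-08). ABCC2, the related pump MRP2, rose from 76.3 to 127 CPM. Enzymes of epigenetic silencing counted 7 of 14 higher and 3 lower. EZH2, the H3K27 methyltransferase, stood at 40.0, 41.5 and 46.4 CPM and then 66.3, 60.6 and 61.2 CPM, and KDM6B, a demethylase of the same mark, at 63.3, 62.9 and 57.5 CPM and then 24.3, 31.5 and 35 CPM (log2 changes 0.56 and -1.02, edgeR adjusted p = 1.02e-06 and 1.13e-05).

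The 5 largest negative differences from 21 days of unbroken drug were at genes near 0 in both exposures. CD177, SEPP1, MUC5AC and SCUBE1, which encode a neutrophil surface protein, a selenium carrier, a mucin and a secreted glycoprotein, were at 44.7, 26.7, 29.5 and 11 CPM after 21 days of unbroken drug. RANBP3L, the fifth, was at 6.12 CPM there. In each library of both exposures all 5 lay at 0.231 CPM or lower. ALX4, a homeobox factor, was at 1.97, 1.62 and 1.78 CPM at the first and 1.58, 1.22 and 1.87 CPM at the second exposure, overlapping, and at 14.7 ± 1.65 and 39.2 ± 2.40 CPM after 14 and 21 days of unbroken drug (log2 differences -3.24 and -4.65, edgeR adjusted p = 5.42e-13 and 9.43e-18). DHRS3, a retinal reductase, fell from 15.4, 15.5 and 15.2 CPM at the first exposure to 7.25, 5.95 and 8.70 CPM at the second, against 26.8 ± 4.71 and 79.3 ± 10.6 CPM under unbroken drug. ARHGAP24, a GTPase-activating protein for Rac, stood at 14.6, 14.9 and 14.8 CPM and then 2.70, 2.56 and 1.97 CPM, and at 9.53 ± 0.909 and 10.4 ± 0.307 CPM under unbroken drug (log2 differences -1.98 and -2.10). In the other direction, IL32, an inflammatory cytokine, stood at 4.36, 5.51 and 4.54 CPM at the first and 20.5, 13.7 and 15 CPM at the second exposure, with 2.39 ± 0.154 CPM after 21 days of unbroken drug, 6.85-fold lower (edgeR adjusted p = 4.41e-11). ADAMTS16, a secreted metalloprotease, stood at 2.12, 2.54 and 2.5 CPM and then 7.66, 7.93 and 8.40 CPM, with 1.81 ± 0.0346 and 1.62 ± 0.361 CPM under unbroken drug (edgeR adjusted p = 4.73e-09 and 1.87e-10).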

How the data were processed

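PolyA RNA was sequenced from 29 libraries of WM239A cells, and 12 of them enter the comparisons here: 3 each of the first exposure, the second exposure and 14 and 21 days of unbroken drug. Cells were frozen at harvest, and RNA was purified together at the end of the course, per the labels' protocols. The authors deposited raw counts per gene. Trimmomatic 0.32, HISAT2 2.0.3, SAMtools 0.1.18, HTSeq 0.6.1 and the build GRCh38 are named in the submitters' processing notes. The annotation release and the strand setting are not given in the sources used here. Positions and gene types are from GENCODE 29, in which 20326 of the tested identifiers were found.

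Of 60675 genes, 20494 passed edgeR's filterByExpr. They were fitted with edgeR 4.0.16 (R 4.3.3, TMM factors, quasi-likelihood test, group means of all 29 libraries, common biological coefficient of variation 0.0942), with Benjamini-Hochberg adjustment over all tested genes and a threshold of 0.05. CPM values use the TMM-scaled library sizes. The procedure was also run on counts simulated with the levels and spread estimated from these libraries. Its outcome is not given here, so that run is no separate support for the calls. The fit was repeated with DESeq2 1.42.0, with a replicate block, with RLE factors, with each library left out, with only the libraries compared and with the low-count filter removed. Named genes were a set of 13 pathway genes, the 12 largest rises and 12 largest falls with a mean of at least 5 CPM in the higher group and no overlap, up to 4 called members of each list in its main direction and 2 in the other, and the 5 largest rises and falls against unbroken drug. The members and lists were chosen with earlier results of these data known.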

Additional observations from a re-analysis of the deposited data

Results flagged for a closer look

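Genes named above (123 before the limit on level) were searched where any library of the 3 groups compared reached 5 CPM. At 16 of them, the second exposure and 21 days of unbroken drug lay on opposite sides of the first exposure in every library. Genes were kept where the 2 day-21 groups, and also the exposures, differed by edgeR's quasi-likelihood test (Benjamini-Hochberg adjusted p below 0.05). The genes were picked for that order in the same libraries, so these tests are no separate support. Over all 20494 tested genes, 7370 did not overlap between the 2 day-21 groups. The share of all tested genes with such an opposite order was not counted. The 3 libraries of the first exposure are shared by both changes. Values are log2 differences, second exposure minus 21 days of unbroken drug. Above the first exposure after the break and below it after 21 unbroken days were the cytokine genes IL32 (2.78) and LIF (1.22). So were the matrix genes COL6A3 (2.07), ADAMTS16 (2.28) and CTGF (0.79), and the receptor kinase AXL (1.91). The ERK-linked factors ETV4 (1.07) and FOSL1 (0.88), the replication genes CDC6 (1.03) and RRM2 (0.91), the methyltransferase EZH2 (0.75) and HMOX1 (0.90) were ordered in the same way. The opposite order was measured at POSTN (-3.74), DHRS3 (-3.44), SPRY1 (-2.07) and PTGS2 (-1.97). The order of the genes that rose after the break held at 21 days and mostly not at 14. After 14 days of unbroken drug, all of them but ADAMTS16 and CTGF had means above the first exposure too. AXL, for example, was at 118 CPM then and 57.9 CPM at the first exposure, while CTGF was at 488 and 493 CPM. No group here held 4 or more libraries, so none could be tested for an outlying library.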

How the results depend on the processing

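Between the exposures, the 3392 higher and 2979 lower genes became 3410 and 2896 with DESeq2, 3481 and 2919 with RLE factors, 3092 and 3033 without the count filter, and 2712 and 2635 with only the libraries compared. Leaving out 1 library at a time gave 2718 to 3218 higher and 2422 to 3054 lower. Leaving out the 2 libraries that stood apart, an alternative chosen after seeing the data, gave 3444 and 3307. Of the 116 named genes that passed, BRAF, MITF, CDKN1A and RANBP3L (6 counts in all) missed the threshold under at least 1 alternative. Of those called against 14 and 21 days of unbroken drug, 21 of 68 and 8 of 97 did so, and no named gene changed direction while called. Against 14 days of unbroken drug, the 1097 higher and 1115 lower genes became 316 and 211 with only the libraries compared, and the cause was not tested. Leaving out single libraries gave 778 to 1470 higher and 713 to 1595 lower there, the lowest count of lower genes being that without replicate 2 of week 2 continuous. Against 21 days, the 2874 and 2940 genes ranged over 2405 to 2931 and 2303 to 2709 with single libraries left out.

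Replicate numbers did not pair the libraries: same-numbered libraries of the exposures had correlations of -0.0283, -0.0224 and 0.0267 in their deviations from the group means. With the replicate block, 3345 genes were higher and 2936 lower between the exposures, 1056 and 1083 against 14 days, and 2846 and 2901 against 21 days. The block moved no count by over 1.5 times, and of the named genes it ended 1 call, that of SPRY4 against 14 days.

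With 3 libraries a group, genes of few counts are estimated poorly, and most genes past 2-fold lie there. In the invasive, ATF4 and MHC lists, directions with 0 calls between the exposures also held 0 at an unadjusted p under 0.05. DESeq2 gave 0 there too. For replication genes 1 member was lower at an unadjusted p and 0 with DESeq2. Under some other alternative, however, 1 invasive gene and 1 replication gene were called lower.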
